A study of Capra hircus with 2 samples.

Results

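The genes described here are chemokines of the stroma and the vessels, with a receptor that reads one of them. The ligands were CXCL12, CXCL13, CCL19, CCL21 and CCL26, and the receptor was CXCR4. They were taken by symbol, 6 of the 27137 gene rows of the single-cell table, and 20228 of those rows held a UMI in a kept cell. A UMI, or unique molecular identifier, tags a captured RNA molecule so that its copies are counted once. The cells came from anagen (growth phase) scapular skin of healthy Liaoning cashmere goats, with 1 library from a coarse type goat (CT-LCG) and 1 from a fine type goat (FT-LCG). The tissue was dissociated with enzymes, passed through strainers and cleared of dead cells before 10x capture of RNA 3' ends. The age and sex of the goats were not given in the sources used here, and nothing was said of treatment.

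Chemokines are small secreted proteins that draw cells bearing matching receptors along a gradient. In skin, fibroblasts and vessel walls release them, and leukocytes read them to enter, stay or leave. CXCL12 binds CXCR4 and the scavenging receptor ACKR3. CXCL13 binds CXCR5 and draws B cells to follicles of lymphoid tissue. CCL19 and CCL21 share the receptor CCR7, through which dendritic cells and T cells enter lymph vessels and nodes. CCL26, also called eotaxin-3, binds CCR3 on eosinophils.

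Of 17299 barcodes, 13051 were kept cells, 3443 of CT-LCG with 27890472 UMIs and 9608 of FT-LCG with 85400323 UMIs. The median depth was 2314 UMIs a cell for CT-LCG and 6121.5 UMIs for FT-LCG, and 11 barcode sequences occurred in both libraries. Cells were put in 19 classes rebuilt here without the chemokine and receptor genes, since the classes of the authors were not used here, and a class was named only from fixed markers. The classes of interest were small. Fibroblast-like cells (8 of CT-LCG and 32 of FT-LCG) held COL1A1 at 361 and 375 UMIs per 10000. Dermal papilla or sheath cup-like cells (71 and 26) held RSPO3, an enhancer of Wnt signalling, at 16.2 and 7.93. A smooth muscle or myoepithelial-like class (10 and 37) held RGS5, a pericyte marker, at 18.8 and 8.9, beside ACTA2 at 14.9 and 22.5 and the keratin KRT14 at 5.86 and 40.5. There were 2 blood endothelial-like classes, one led by ACKR1 (34 and 79 cells) with PECAM1 at 12.1 and 8.69, and one led by CSF3 (12 and 47 cells) with PECAM1 at 19.3 and 11.3. Lymphatic endothelial-like cells (5 and 26) held PROX1, the regulator of lymphatic identity, at 8.49 and 7.53, and T cell-like cells (55 and 43) held CD3E at 9.26 and 10. Keratinocyte RNA was present in all of them: the 5 suprabasal epidermal markers were detected in each of these 7 classes in both libraries, and their summed level ran from 17.1 to 95.2 except in the endothelial-like class led by ACKR1, where it was 452 and 193. Its part in the results was not tested. With 1 library for each fibre type no test was possible, and the animal, the library and the fibre type cannot be told apart.

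Every level below is the summed UMIs of a gene per 10000 UMIs of a class, with an exact 95% Poisson interval, and every share of cells has an exact binomial interval. Both cover counting error only. Levels were read within a gene and not between genes. Because deeper cells show more genes, shares were also taken after each cell was thinned at random to 1000 UMIs, without the shallower cells. These were 0 and 3 fibroblast-like, 2 and 5 dermal papilla or sheath cup-like, 0 and 1 lymphatic endothelial-like, 2 and 1 T cell-like, 3 and 9 granular layer-like, 6 and 35 outer root sheath or bulge-like cells, and 0 and 126 of the class led by TRPV3. The granular layer-like class (220 and 759 cells), a cornifying keratinocyte layer, was set beside each gene as a class not known to make it. It was not free of cells with several UMIs. In FT-LCG 7 of its cells held 2 or more UMIs of CXCL12 and 14 held 2 or more of CXCR4, against 0 and 2 in CT-LCG. Of its 27 FT-LCG CXCL12 UMIs, 21 lay in cells that also held SFRP1, an outer root sheath marker. The class was not tested for mixed cells. Its cells were deep (medians of 19568.5 and 12859 UMIs), and barcodes below the gene minimum, with medians of 716 and 607 UMIs, held more of some genes. For CCL21 the level in such barcodes was 0.343 and 0.12, against 0.00634 and 0.00991 in the granular layer-like class.

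**Figure D1:**
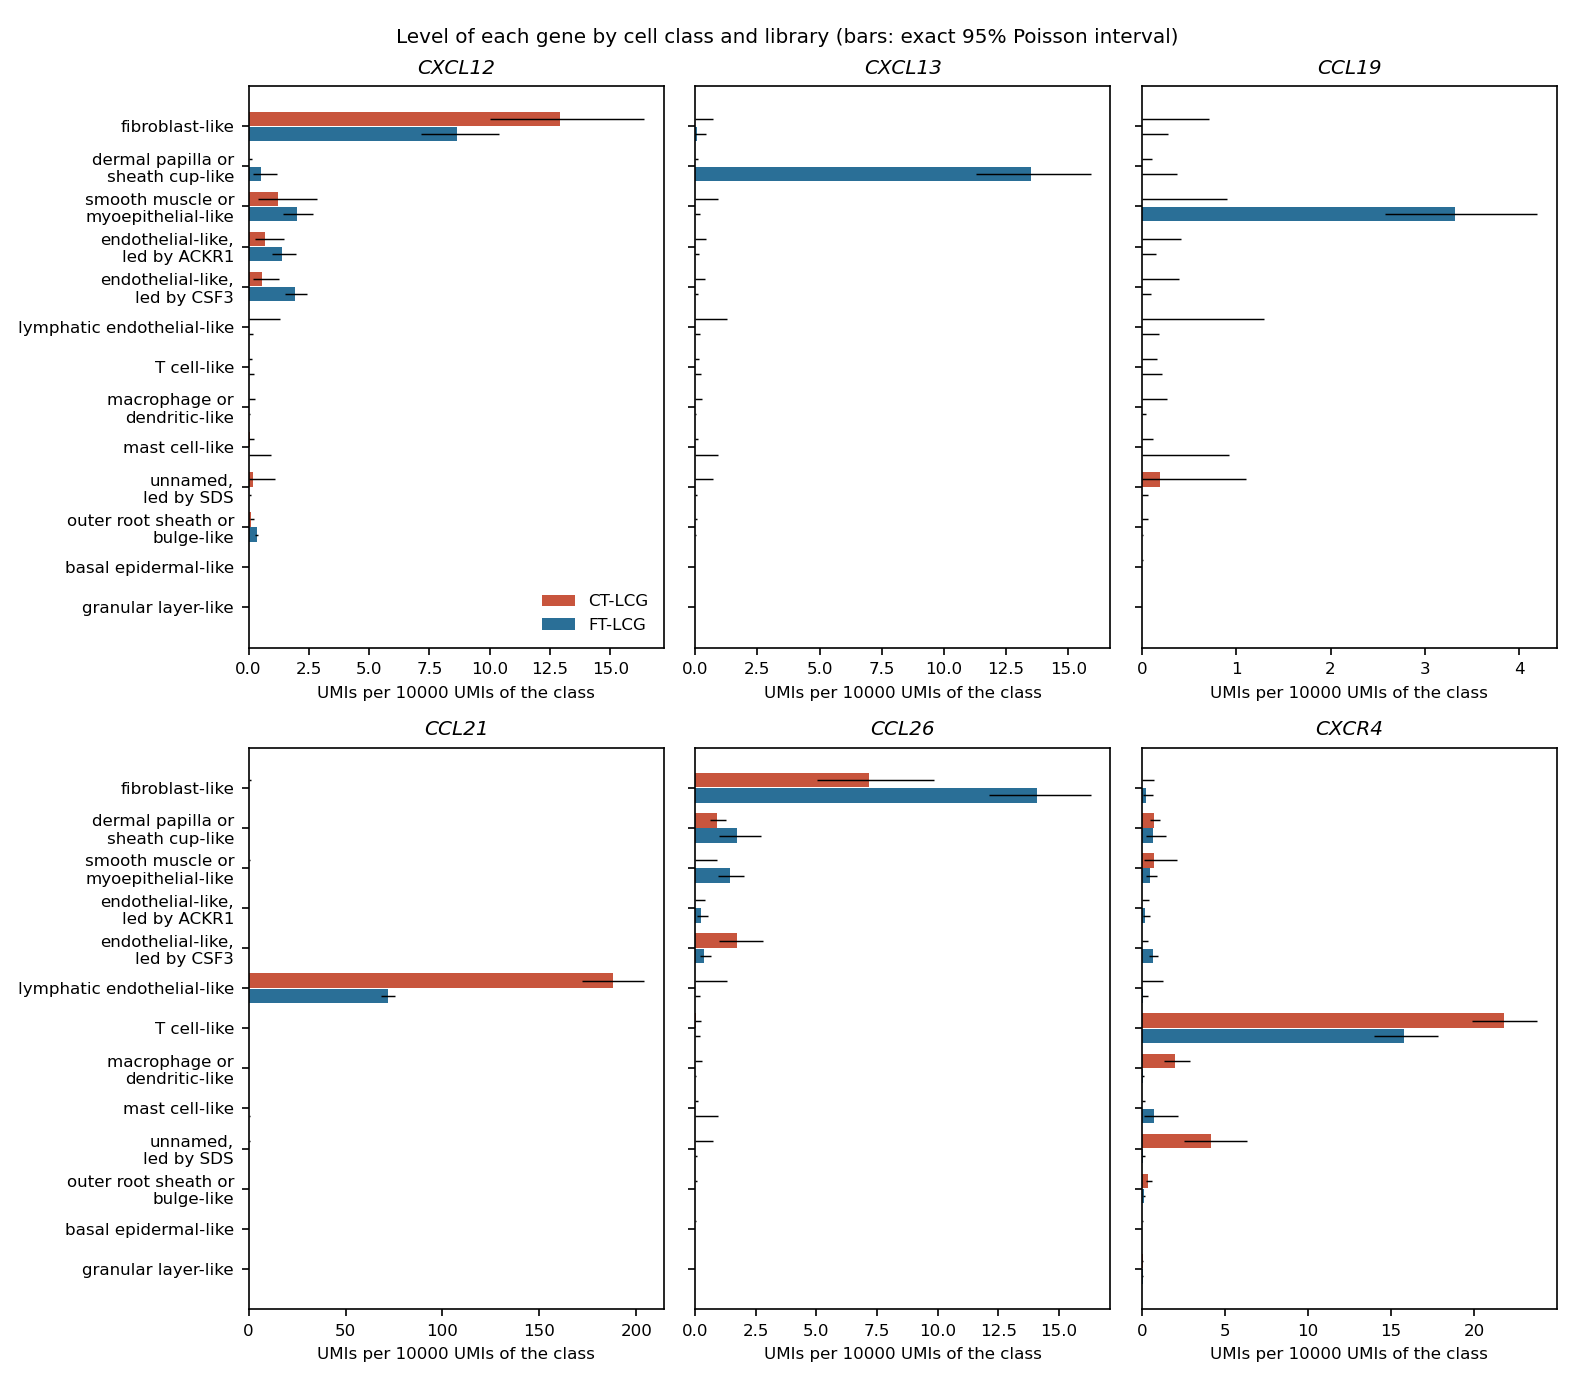
Level of each of the 6 genes (UMIs per 10000 UMIs of the class, horizontal axis) by cell class (vertical axis) and library (colour), with exact 95% Poisson intervals as black lines. CXCL12 and CCL26 were highest in fibroblast-like cells, CCL21 in lymphatic endothelial-like cells and CXCR4 in T cell-like cells in both libraries, while the CXCL13 and CCL19 bars stood in FT-LCG and rested on 1 cell each.

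CXCL12, the ligand of CXCR4, was highest in fibroblast-like cells. The level reached 12.9 (10 to 16.4) for CT-LCG and 8.65 (7.13 to 10.4) for FT-LCG. All 8 CT-LCG cells and 23 of 32 FT-LCG cells held a UMI of it, which became 75% and 37.9% of cells after thinning. Granular layer-like cells held it at 0 and 0.0223. By cell, the CT-LCG counts of CXCL12 ran from 1 to 12 UMIs (median 9.5) and the FT-LCG counts from 0 to 20 (median 1).

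The smooth muscle or myoepithelial-like class and the blood endothelial-like classes followed at much lower levels of CXCL12. In FT-LCG the smooth muscle or myoepithelial-like class stood at 1.99 (1.43 to 2.69), the endothelial-like class led by CSF3 at 1.92 (1.51 to 2.41) and that led by ACKR1 at 1.39 (0.966 to 1.95), 3 values whose intervals overlapped. In CT-LCG the same classes stood at 1.22 (0.397 to 2.85), 0.536 (0.174 to 1.25) and 0.68 (0.249 to 1.48), again overlapping and on 5, 5 and 6 UMIs. Dermal papilla or sheath cup-like cells, the class with RSPO3, held CXCL12 at 0.0286 (1 UMI) and 0.502 (5 UMIs), below the fibroblast-like levels. Lymphatic endothelial-like cells, T cell-like cells and macrophage or dendritic-like cells held no CXCL12 UMI in either library.

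Epithelial cells, the most numerous, also held a large part of the CXCL12 UMIs. Fibroblast-like cells held 62% of the 108 CXCL12 UMIs of CT-LCG and 20.8% of the 542 of FT-LCG, whereas epithelial classes together held 19.4% and 50.2%. The epithelial classes include the unnamed ones led by TRPV3, LOC102191453 and HSPA6, with 48, 11 and 6 FT-LCG UMIs. A single UMI was all that 19 of 20 CT-LCG and 157 of 201 FT-LCG epithelial cells with CXCL12 had. The outer root sheath or bulge-like class, the outer wall of the follicle, carried the most of them. In FT-LCG it held 131 of the 272 epithelial UMIs, in 86 of its 511 cells. Its level there was 0.329 (0.275 to 0.391) against 0.0223 (0.0147 to 0.0325) in granular layer-like cells. After thinning, 2.94% of its cells (14 of 476) had a UMI, against 0.267% (2 of 750) of granular layer-like cells. The CT-LCG level of this follicle class was 0.112 (0.041 to 0.243), on 6 UMIs. Barcodes below the gene minimum held CXCL12 at 0.0303 (0.0111 to 0.0659) and 0.1 (0.0481 to 0.185), below the class in FT-LCG and overlapping it in CT-LCG.

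**Figure D2:**
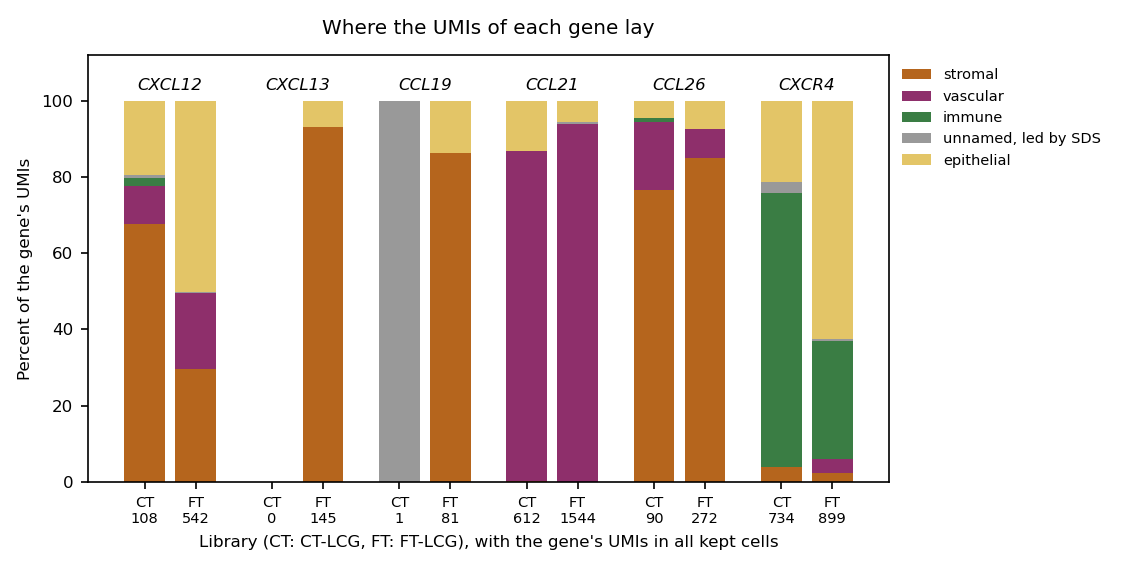
Percent of the UMIs of each gene (vertical axis) that lay in stromal, vascular, immune, SDS-led and epithelial cells, for each library, with the total UMIs of the gene under each bar. Epithelial cells include the unnamed classes led by TRPV3, LOC102191453 and HSPA6. The CT-LCG bar of CCL19 is a single UMI. Vascular cells held 86.8% and 94% of CCL21, stromal cells 76.7% and 84.9% of CCL26, and immune cells 71.9% and 30.9% of CXCR4, in CT-LCG and FT-LCG.

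CXCL13, the B cell attractant, was found in FT-LCG alone, with 145 UMIs there and 0 in CT-LCG. A single dermal papilla or sheath cup-like cell held 131 of them. That cell had 5199 UMIs and 2135 genes, with 2 UMIs of RSPO3, 2 of the Wnt inhibitor WIF1, 4 of COL1A1, 5 of CCL26 and 13 of CXCL14. A second cell of the class held 3 CXCL13 UMIs, and the other 24 cells none. The class level in FT-LCG was 13.5 (11.3 to 15.9) and became 0.318 without the first cell. The 71 cells of the class in CT-LCG held none, and a count of 0 there allows a level of up to 0.0859. The FT-LCG level was thus 157-fold that limit, a ratio that rests on the 1 cell. In this class 24.1% of the genes with 20 or more UMIs differed at least 2-fold between the libraries.

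CCL19, a ligand of CCR7, had the same shape. FT-LCG held 81 UMIs and CT-LCG 1, and a single FT-LCG cell of the smooth muscle or myoepithelial-like class held 70. That cell had 6315 UMIs, with 10 of ACTA2, 42 of KRT14, 2 of CXCL12 and none of RGS5 or HIGD1B, another pericyte marker. The class level was 3.32 (2.58 to 4.19) in FT-LCG and 0 without the cell. In CT-LCG its 10 cells held none, which allows a level of up to 0.733. The FT-LCG level was 4.52-fold that limit, on that 1 cell. In this class 30.5% of genes differed at least 2-fold. The 12 other CCL19 UMIs lay in 12 cells, 11 of them epithelial. Cells with 2 or more UMIs of RGS5 (5 and 12) held no CCL19 UMI in either library. As 70 of the 81 FT-LCG UMIs lay in the 1 cell without RGS5, this count of 0 says little about the source of CCL19.

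CCL21, which lymph vessels display to passing leukocytes, was almost all in lymphatic endothelial-like cells. The CT-LCG level was 188 (172 to 204) and the FT-LCG level 71.9 (68.2 to 75.7), from 4 of 5 and 24 of 26 cells. After thinning the share of cells with CCL21 was 80% in both libraries. Both blood endothelial-like classes held none. The class held 91.9% (90.7 to 93) of the 2156 CCL21 UMIs, that is 86.8% of those in CT-LCG and 94% of those in FT-LCG.

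The 5 CT-LCG cells of the lymphatic endothelial-like class held 293, 166, 37, 35 and 0 CCL21 UMIs. The cell without CCL21 carried macrophage genes, with 54 UMIs of C1QC, 45 of C1QA and 41 of CD209, and neither PROX1 nor MMRN1. Without it the CT-LCG level was 240. The 26 FT-LCG cells held between 0 and 288 CCL21 UMIs with a median of 12.5. All 4 CT-LCG cells and 22 of 24 FT-LCG cells with CCL21 also held MMRN1, a protein of lymphatic endothelium, and 4 and 19 held PROX1.

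The CCL21 level was 2.61-fold higher in CT-LCG (log2 1.39, 1.24 to 1.53 by counting error), where 39.0% of genes in this class differed at least 2-fold in one direction or the other. Without the CT-LCG cell of 293 UMIs the ratio became 1.56-fold. It was 3.12-fold without the top FT-LCG cell, and 1.87-fold without both of these top cells. Without the cell that carried C1QC it was 3.34-fold, and without both that cell and the one of 293 UMIs 2.21-fold, from 3 CT-LCG cells. Leaving out the top FT-LCG cell as well made these 3.99-fold and 2.64-fold. Whether the ratio passed 2-fold therefore turned on which of the 5 CT-LCG cells were counted.

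Traces of CCL21 were spread thinly over the epithelial classes, with few exceptions. In the shallow inner root sheath-like class led by TCHH its level was 0.305 (29 of 884 cells) and 0.171 (42 of 1932 cells). In granular layer-like cells it was 0.00634 and 0.00991. Of the 12 FT-LCG UMIs there, 7 lay in a single cell. That cell held 2 or more UMIs of PECAM1, and 2 or more of PROX1 or MMRN1. Of the epithelial cells with CCL21, 75 of 77 in each library had a single UMI. Barcodes below the gene minimum held CCL21 at 0.343 and 0.12, close to the TCHH-led class. The part of free RNA in these traces was not tested.

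CCL26, the eosinophil attractant, was again highest in fibroblast-like cells. The CT-LCG level was 7.15 (5.03 to 9.85) and the FT-LCG level 14.1 (12.1 to 16.3), from 4 of 8 and 10 of 32 cells. After thinning 37.5% and 34.5% of cells held a UMI. The class held 61% of the 362 CCL26 UMIs (41.1% for CT-LCG and 67.6% for FT-LCG). Granular layer-like cells of CT-LCG held no CCL26 UMI and those of FT-LCG 1.

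CCL26 was found in fewer fibroblast-like cells than CXCL12, though in FT-LCG the shares of cells were close after thinning. The CT-LCG cells held from 0 to 18 CCL26 UMIs and the FT-LCG cells from 0 to 79. All 14 fibroblast-like cells with CCL26 also held CXCL12, while 17 others held CXCL12 alone and 9 held neither. In CT-LCG all 8 cells held CXCL12, so the overlap there could not be otherwise. In FT-LCG the cells with CCL26 were deeper, with a median of 4631.5 UMIs against 3150.5 for the class. Without the cell of 79 UMIs the FT-LCG level was 8.35.

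**Figure D3:**
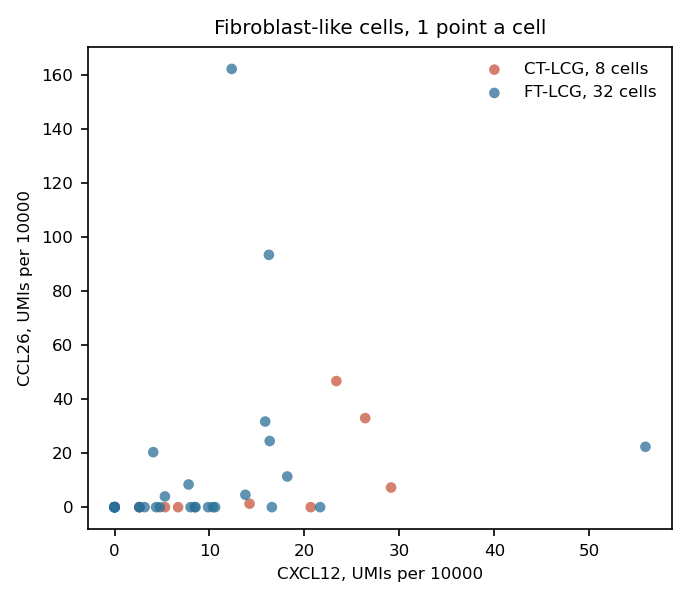
CXCL12 (horizontal axis) against CCL26 (vertical axis), both in UMIs per 10000 UMIs of the cell, for the 8 CT-LCG and 32 FT-LCG fibroblast-like cells, 1 point a cell. Every cell with CCL26 lay to the right of 0 on the CXCL12 axis, and the highest CCL26 cell, at 162 per 10000, was of FT-LCG.

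Outside fibroblasts CCL26 was found in a wider set of dermal cells. Dermal papilla or sheath cup-like cells held it at 0.917 (0.627 to 1.29; 20 of 71 cells) and 1.71 (0.994 to 2.73; 5 of 26 cells). Their share of cells after thinning was 13% and 19%. The endothelial-like class led by CSF3 held it at 1.72 (0.981 to 2.79) in CT-LCG and 0.384 (0.215 to 0.633) in FT-LCG. The smooth muscle or myoepithelial-like class held 30 UMIs in FT-LCG, a level of 1.42 (0.959 to 2.03), and 0 in CT-LCG, where a count of 0 allows up to 0.733. Of those 30 UMIs, 26 lay in the 9 cells of the class with 2 or more UMIs of RGS5, and 14 in 1 cell. The same 9 cells held 6 of the 42 CXCL12 UMIs, and the 15 cells with any RGS5 held 18 of them. Lymphatic endothelial-like cells held no CCL26.

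Between the libraries neither fibroblast ligand passed 2-fold, in a class where 24.8% of genes did. CXCL12 was 1.5-fold higher in CT-LCG (log2 0.58, 0.12 to 1.03) and CCL26 1.97-fold higher in FT-LCG. The CCL26 ratio was 1.17-fold without the top FT-LCG cell and 3.55-fold without the top CT-LCG cell, so 1 cell set its size on either side.

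The same question was asked with marker gates that may overlap, set after the data were seen. Collagen-high cells (29 and 58) held 63% of CXCL12 UMIs for CT-LCG and 23.1% for FT-LCG, and 45.6% and 68.8% of CCL26 UMIs. Among them 8 and 31 were fibroblast-like, with 67 and 113 CXCL12 UMIs. Another 16 and 13 were dermal papilla or sheath cup-like, with 1 and 5. Cells with 2 or more UMIs of RSPO3 (48 and 11) held 1 and 0 CXCL12 UMIs, 28 and 6 of CCL26, and 131 of CXCL13 in FT-LCG. Cells with 2 or more of RGS5 (5 and 12) held 4 and 11 UMIs of CXCL12 and 0 and 39 of CCL26. In FT-LCG, 5 of these CXCL12 and 13 of these CCL26 UMIs lay in 2 cells of the endothelial-like class led by CSF3. Cells with 2 or more of PECAM1 (45 and 120) held 80.7% and 83.9% of CCL21, and 11.1% and 19.7% of CXCL12. Cells with 2 or more of PROX1 or MMRN1 (16 and 38) held 86.8% and 92.6% of CCL21, the most of any gate. Cells in none of the gates, 3283 and 9361, held 22.2% and 55.4% of CXCL12 and 8.89% and 11.4% of CCL26. The collagen gate thus held more CXCL12 than any other gate, but in FT-LCG less than the cells in no gate.

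**Figure D4:**
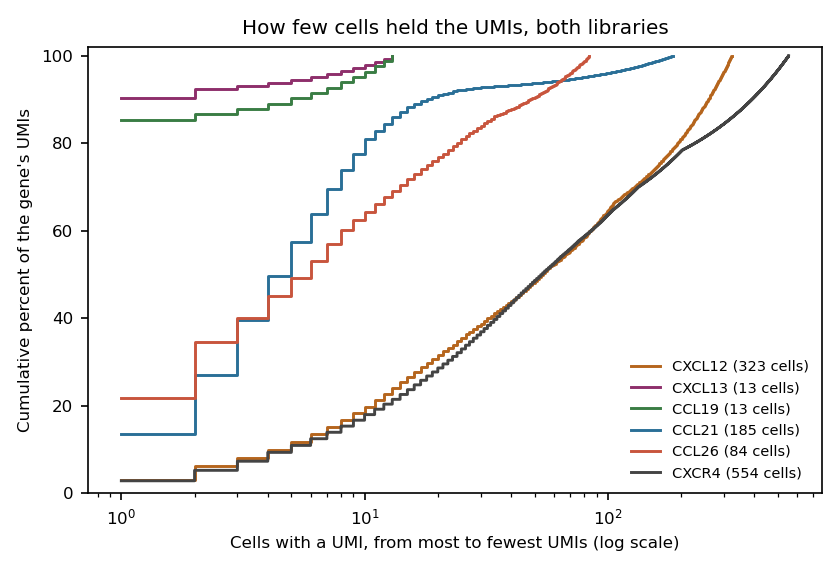
Cumulative percent of the UMIs of each gene (vertical axis) against the number of cells with a UMI, ranked from most to fewest UMIs (horizontal axis, log scale), both libraries together. The CXCL13 and CCL19 lines start at 90.3% and 85.4% at the first cell, whereas CXCL12 and CXCR4 rise over many cells.

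How many cells carried each gene differed widely. The top cell held 90.3% of CXCL13 and 85.4% of CCL19 UMIs. It held 13.6% of CCL21 and 21.8% of CCL26 UMIs, and the 10 top cells 81% and 64.4%. CXCL12 was the most spread of the ligands, with 3.08% in its top cell and 19.8% in the top 10. CXCR4 was spread likewise, with 2.88% and 18%.

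CXCR4, the receptor of CXCL12, was highest in T cell-like cells. It stood at 21.8 (19.9 to 23.8) for CT-LCG and 15.8 (14 to 17.8) for FT-LCG. A UMI was found in 43 of 55 cells (78.2%) and 32 of 43 (74.4%), and after thinning in 67.9% and 64.3%. In granular layer-like cells, deeper than T cell-like cells with their medians of 4002 and 3726 UMIs, the shares were 3.64% and 3.82%, or 0.461% and 0.4% after thinning. The T cell-like share thus stood above that of a deeper class.

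Single T cell-like cells of CT-LCG held 0 to 47 CXCR4 UMIs (median 4), and those of FT-LCG 0 to 25 (median 5). Of the cells with CXCR4, 38 of 43 and 27 of 32 also held CD3E, a chain of the T cell receptor complex. None held a CXCL12 UMI. The level was 1.38-fold higher in CT-LCG (log2 0.46, 0.24 to 0.68), below the 2-fold mark that 21.4% of genes in this class passed.

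T cell-like cells held 68% of the 734 CXCR4 UMIs of CT-LCG and 29.9% of the 899 of FT-LCG. They were 1.6% and 0.448% of kept cells, and epithelial cells held 21.3% and 62.6% of the CXCR4 UMIs. The epithelial cells include the unnamed classes led by TRPV3, LOC102191453 and HSPA6. These held 20, 27 and 17 of the 156 epithelial UMIs of CT-LCG, and 248, 76 and 23 of the 563 of FT-LCG. T cell-like cells were thus the rarer among FT-LCG cells, where the epithelial share of CXCR4 was the larger. The class led by TRPV3, which has no fixed marker among its leading genes and stays unnamed, held the most of the epithelial CXCR4 UMIs in FT-LCG. It had 248 UMIs in 104 of 1275 FT-LCG cells, a level of 0.201 (0.177 to 0.228) against 0.0521 (0.04 to 0.0666) in granular layer-like cells, and 2.09% of its cells after thinning. Its CXCR4 cells held up to 14 UMIs and none held CD3E or PTPRC, the general leukocyte marker. Of the 104 FT-LCG cells, 61 had a single CXCR4 UMI. Some T cell-like cells with CXCR4 also lacked CD3E, and the source of these UMIs was not tested. Barcodes below the gene minimum held CXCR4 at 0.151 (0.0842 to 0.248) in FT-LCG, an interval that overlaps that of the class. In CT-LCG the class stood at 0.118 (0.0722 to 0.183), on 20 UMIs, beside 0.0757 (0.0424 to 0.125) in such barcodes. There the class led by LOC102191453 held more, 27 UMIs, as did granular layer-like cells with 23 and outer root sheath or bulge-like cells with 21.

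CXCR4 in the other immune and dermal classes was low or rested on few cells. Macrophage or dendritic-like cells (19 and 65) stood at 2 (1.33 to 2.9) and 0.0709 (0.026 to 0.154), and the CT-LCG level was 0.598 without 1 cell of 20 UMIs. The class led by SDS met the naming rule through the melanocyte genes MLANA and PMEL, but was left unnamed by choice. It stood at 4.15 (2.57 to 6.34) in CT-LCG from 3 of 19 cells. Of those 21 UMIs, 20 lay in 2 cells that also held CXCL8. In FT-LCG the class stood at 0.0693 (0.0189 to 0.177).

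CXCR4 was also found in stromal classes. In dermal papilla or sheath cup-like cells the level was 0.745 (0.487 to 1.09) and 0.703 (0.283 to 1.45), from 18 of 71 and 5 of 26 cells. After thinning 3 of 69 and 0 of 21 cells held a UMI. None of the cells with CXCR4 held CD3E or PTPRC. A single CXCR4 UMI was all that 12 of the 18 and 4 of the 5 cells had, and its source was not tested. The smooth muscle or myoepithelial-like class stood at 0.733 (0.151 to 2.14) and 0.521 (0.26 to 0.932), on 3 and 11 UMIs, intervals that overlap those of dermal papilla or sheath cup-like cells. Cells with 2 or more UMIs of RGS5 held it at 1.3 and 1.78, and those with 2 or more of RSPO3 at 1.15 and 0.53. Not all of these were stromal cells. Of the 22 FT-LCG UMIs in the RGS5 gate, 12 lay in the endothelial-like class led by CSF3 and 9 in the smooth muscle or myoepithelial-like class. Of the 34 CT-LCG UMIs in the RSPO3 gate, 13 lay in 1 T cell-like cell. Fibroblast-like cells held 0 and 3 UMIs of CXCR4, and lymphatic endothelial-like cells 0 and 2. In the endothelial-like class led by CSF3, 26 UMIs lay in 3 of 47 FT-LCG cells and none in CT-LCG.

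**Figure D5:**
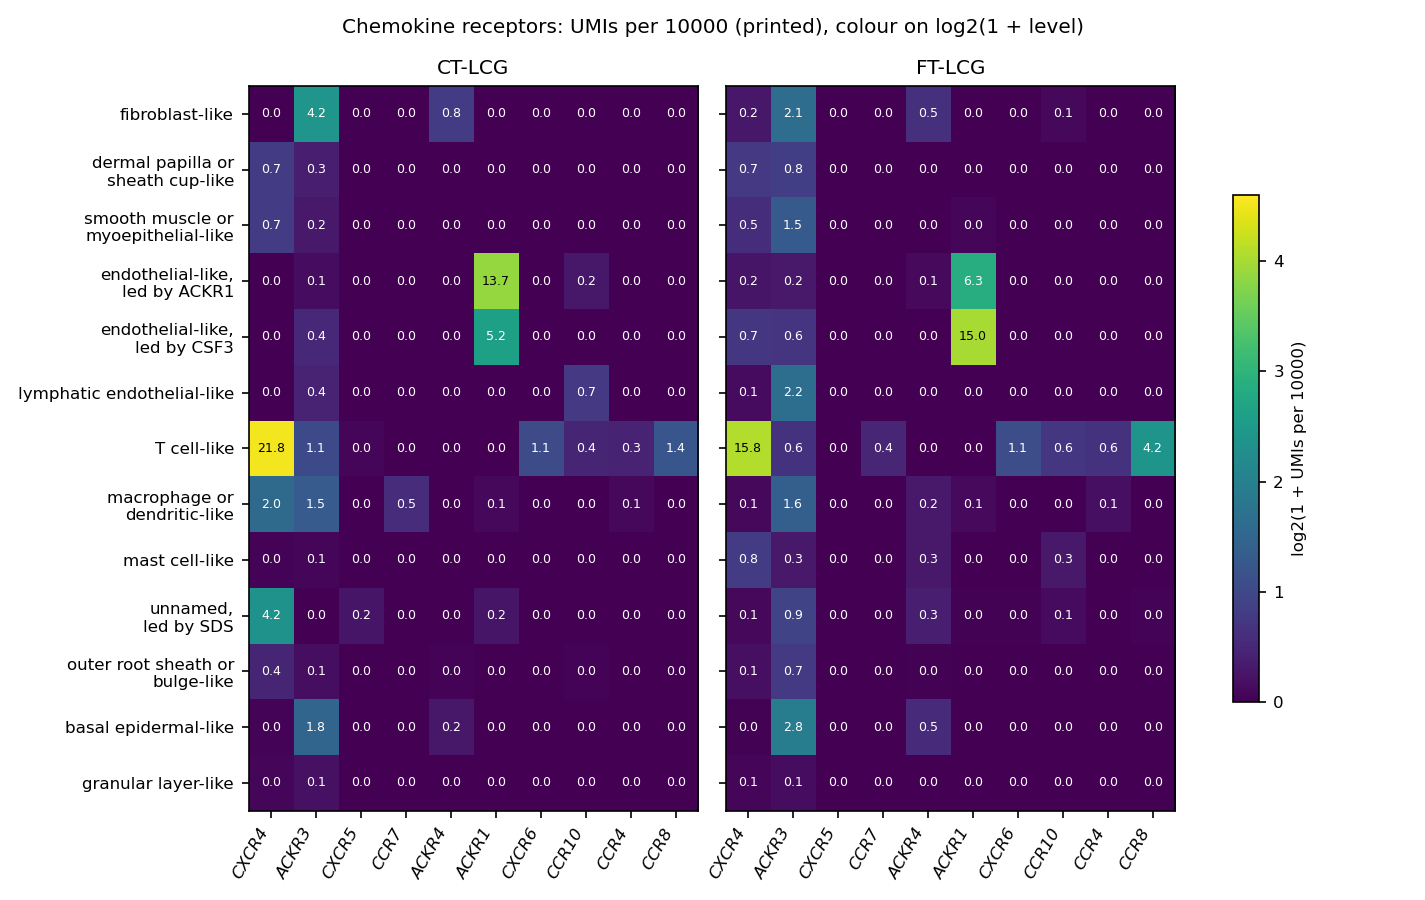
Levels of the 10 listed receptors with 20 or more UMIs (columns) by cell class (rows) in CT-LCG (left) and FT-LCG (right), printed as UMIs per 10000 and coloured by log2(1 + level). CXCR4 stood at 21.8 and 15.8 in T cell-like cells, ACKR1 filled only blood endothelial-like classes above 1, and CXCR5 and CCR7 stayed below 1 in every class drawn.

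The receptors of the other ligands were sparse. Here a gene is placed in the class with the highest mean of its levels in the 2 libraries. By that rule, of the 15714 genes with 20 or more UMIs, 30.2% were highest in a stromal class, 25.9% in an epithelial, 20% in an immune, 19.1% in a vascular class and 4.8% in the SDS-led class. Of 18 receptors listed, 15 had a row and 10 had 20 or more UMIs, and 6 of these 10 were highest in immune classes, 2 in stromal, 1 in vascular and 1 in the SDS-led class. CXCR5, the CXCL13 receptor, had 17 and 35 UMIs in all, and reached its highest level, 0.197, on 1 UMI. CCR7, shared by CCL19 and CCL21, had 7 UMIs in macrophage or dendritic-like cells of CT-LCG (0.501) and 7 in T cell-like cells of FT-LCG (0.412), and none in the reverse pairs. CCR3 had 1 UMI, and CX3CR1, another receptor of CCL26, had 12. Among the signalling receptors of these ligands CXCR4 had the most UMIs in T cell-like cells.

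The scavenging receptors, which bind chemokines without classical signalling, had other places. ACKR3, which takes up CXCL12, stood at 4.25 (2.66 to 6.43) and 2.14 (1.42 to 3.1) in fibroblast-like cells, its highest class in CT-LCG. Basal epidermal-like cells held it at 1.83 and 2.82, on 669 and 3135 UMIs, and were highest in FT-LCG, and lymphatic endothelial-like cells held it at 0.354 and 2.18. ACKR4, which clears CCL19 and CCL21, stood at 0.772 and 0.536 in fibroblast-like cells and at 0.233 and 0.454 in basal epidermal-like cells, and at 0 in lymphatic endothelial-like cells. ACKR1, which carries inflammatory chemokines across venules, stood at 13.7 and 6.32 in the class it leads and at 5.15 and 15 in the class led by CSF3.

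Among receptors not bound by these ligands, CCR8 stood at 1.35 and 4.18, CXCR6 at 1.09 and 1.12, CCR10 at 0.393 and 0.648, and CCR4 at 0.349 and 0.589 in T cell-like cells. Each was highest in that class in both libraries, except CCR10, which in CT-LCG stood at 0.707 on 2 UMIs in lymphatic endothelial-like cells. Of 28 other chemokines listed, 16 had a row and 13 had 20 or more UMIs: 5 were highest in epithelial classes, 5 in immune, 2 in vascular and 1 in stromal. The placing of CXCL10 and CCL25 rested on 4 and 2 UMIs. The stromal one was CXCL14, a chemokine of epithelium and papilla, at 56.8 and 77.5 in dermal papilla or sheath cup-like cells.

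Of 14 enzymes, partners and inducers listed, 13 had a row and 12 had 20 or more UMIs, and 6 were highest in immune, 3 in vascular, 2 in epithelial and 1 in stromal classes. The placing of LTBR rested on 1 UMI and that of ARRB2 on 7. RGS1, a brake on chemokine receptor signalling, stood at 36.7 and 20.7 in T cell-like cells. Macrophage or dendritic-like cells stood at 36 in CT-LCG, within counting error of the T cell-like level, and lower in FT-LCG. LTB and TNFSF14, ligands of the lymphotoxin receptor that supports CCL19 and CCL21 in lymphoid stroma, were highest in the same cells. LTB stood at 0.655 and 1.24 there, and TNFSF14 at 1.44 and 1.41. DPP4, a peptidase that cuts CXCL12, stood at 0.966 and 0.536 in fibroblast-like cells on 5 and 7 UMIs, and at 0 and 0.87 in the endothelial-like class led by CSF3. ICAM1, to which leukocytes adhere, was highest in the endothelial-like class led by CSF3 at 8.05 and 6.37.

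The genes with the pattern most like each member were named by Pearson r of log2(1 + level) over 31 class and library points of 20 or more cells, across 13014 genes. The points share libraries and depth, and r is given as a description. For CXCL12 they were SERPING1 (r = 0.948), SSPN, PLPP3, FKBP7 and LOC102183372 (r = 0.900), and CCL26 had r = 0.858 with it. For CCL26 they were AEBP1 (r = 0.992), COL3A1, LRP1, COL1A2 and COL1A1 (r = 0.970), of which 3 are fibrillar collagens. For CCL21 they were MMRN1 (r = 0.997), TMEM61, PITX1, CLDN11 and PROX1 (r = 0.987). For CXCR4 they were ITGAE (r = 0.978), LOC108633275, LOC102181959, LOC102191204 and TNFRSF9 (r = 0.973), with ITGAE an integrin of T cells in epithelium. CXCL12 and CXCR4, ligand and receptor, had r = -0.032. The CT-LCG fibroblast-like and lymphatic endothelial-like cells were too few to be points, so the order for CCL21 rests on the FT-LCG lymphatic endothelial-like point, and that for CCL26 mainly on the FT-LCG fibroblast-like point. For CXCL13 (C11H2orf40 and CRYM among them) and CCL19 (PLN and HIGD1B among them) the order rests on 1 point and 1 cell, and the CCL19 cell held no HIGD1B.

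In the RefSeq gene table of the goat assembly ARS1.2, all 6 members were protein-coding genes. CCL19 and CCL21 were neighbours there, and CCL26 lay next to CCL24. CCL24 was highest in macrophage or dendritic-like cells (0.0716 and 0.354) and CCL26 in fibroblast-like cells. CCL19 and CCL21 had no kept class in which both were above 1. The only CCL19 level above 1 rested on 1 cell, so the places of that pair could not be compared.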

How the data were processed

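Single-cell suspensions were loaded on a 10x Chromium system with the 3' version 3 kit. Per the labels, the authors used bcl2fastq, Cell Ranger and Seurat 3.1.1, and the deposited matrix holds raw UMI counts per gene and barcode. The goat genome build is not stated in the labels or methods. The deposited cell table gives the library and fibre type of each kept cell. All kept cells had at least 501 genes, and the other barcodes had at most 500.

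For clustering, the counts of each cell were brought to a sum of 10000 and log transformed. Then 2000 variable genes, 10 principal components, a Python implementation of Harmony on the library and Leiden clustering (resolution 0.5, 13 clusters) were used, and 36 chemokine and receptor genes did not define clusters. The 705 cells of 4 stromal, vascular or immune clusters were clustered again at resolution 1.0, a value chosen after the data were seen, giving 10 classes beside 9 epithelial ones. The unnamed classes led by TRPV3, LOC102191453 and HSPA6 were counted among these 9. A class was named from at least 3 detected fixed markers, with a fixed marker among its 10 leading genes. Leading genes were those with the largest fold over the mean of the other classes. The class led by SDS met this rule as melanocyte-like, with 4 markers detected. It was left unnamed by choice, because its leading genes did not speak for a single cell type. No doublet caller was run. Python 3.11.15, numpy 2.4.6, scipy 1.17.1, leidenalg 0.10.2 and scikit-learn 1.9.0 were used, and the scripts were tested on simulated data. A gene was said to differ at 2-fold or more with 20 or more UMIs, and a count of 0 was bounded by 3 counts. Of 27137 gene rows, 27103 matched the RefSeq table by gene ID.

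Named genes were the members, the genes of the receptor, chemokine and partner lists with 20 or more UMIs, and the 5 genes most like each member of 50 or more UMIs, among genes of 100 or more. Listed genes without a row used here, among them ACKR2, CCR1, CCR2 and VCAM1, were not analysed here. The members and lists were chosen with earlier results of these data known. Alternatives were marker gates, thinning, a minimum of 1000 genes, no Harmony, 20 components and the mean over cells. Leaving out the top cell, a second clustering at 1.5 and overlapping gates were added after the data were seen.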

Additional observations from a re-analysis of the deposited data

Results flagged for a closer look

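Barcodes that were not kept (2659 of CT-LCG and 1589 of FT-LCG, none above 500 genes) also held members of the set, above the limit that a count of 0 allows. In CT-LCG they held 68 UMIs of CCL21, 15 of CXCR4 and 6 of CXCL12, which are levels of 0.343, 0.0757 and 0.0303 per 10000. In FT-LCG they held 12 UMIs of CCL21, 15 of CXCR4, 10 of CXCL12 and 4 of CXCL13, which are levels of 0.12, 0.151, 0.1 and 0.0401. For CCL21 the CT-LCG level was above that of granular layer-like cells (0.00634), and the most UMIs in one of these barcodes was 6. Whether these barcodes were cells or empty droplets was not tested.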

How the results depend on the processing

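Over the 60 comparisons of a member's share of UMIs, or its leading class, with an alternative, 42 stayed and 18 did not. To stay, a share had to lie within the counting interval of the value reported and in the same class. Marker gates were judged on the share alone, and the mean over cells on the class alone. By the mean over cells, the leading class was the same for all 6 genes, and the CXCL12 share of 27.7% stayed between 25.4% and 29.9% in its 9 alternatives. Exclusive marker gates, which put most cells in a keratin gate, gave leading shares of 0.69% for CXCL13, 100% for CCL19 (keratin), 4.78% for CCL21 (PECAM1) and 4.96% for CXCR4 (immune). Thinning gave 63.6% for CCL19, 82% for CCL21 and 54.4% for CXCR4. Cells of at least 1000 genes gave 96.4% for CXCL13, 94.6% for CCL19 and 96.1% for CCL21. Without Harmony CCL21 stood at 92.3% in a class named endothelial-like, and with 20 components CCL19 stood at 85.4% in a class named pericyte-like. Leaving out the top cell gave 21.4% for CXCL13, 8.33% for CCL19 (1 UMI in the SDS-led class), 90.7% for CCL21 and 50.2% for CCL26. Overlapping gates gave 0% of CCL19 for RGS5 and 33.3% of CXCR4 for CD3E. The causes of these shifts were not tested beyond what the alternatives' own construction shows.

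No paired analysis was possible because each fibre type had 1 library and no test was run. The number of cells limited the rare classes, with 5 lymphatic endothelial-like and 8 fibroblast-like cells in CT-LCG. The cell left out for C1QC was an alternative added after the data were seen.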
